A study of Saccharomyces cerevisiae with 12 samples.

Results

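RNA of budding yeast grown with 0.1 µg/mL doxycycline, the middle of 3 doses, was compared with RNA of the untreated control. Both groups held 3 of the 12 samples of the series and were log-phase cells of the haploid strain TH_5234, mating type MATa. The cassette pRAP1::kanR-tetO7-TATA puts RAP1 behind a tetracycline-responsive promoter in this strain, and URA3::CMV-tTA supplies the tetracycline-controlled activator. The alleles his3-1, leu2-0 and met15-0 are carried by control and treated cells alike. It is 1 engineered strain, and nothing in the labels tells if replicates came from separate cultures, so that the authors' q-values may measure only technical spread. The authors' deposited table gives 5085 genes with 1 pooled level per group, taken here as FPKM (fragments per kilobase of transcript, scaled to sequencing depth), so levels are per length and no SD or value per sample can be given. A gene was a member where both levels were above 0 and the higher one was at least 5 FPKM, which 4997 of the 5085 genes met. Of the other 88 genes, 24 were listed at 0 in at least 1 group and 64 lay under the minimum.

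Rap1 is an essential DNA-binding protein of yeast. It binds upstream of most ribosomal protein genes and of many glycolytic genes, where it recruits coactivators, and it also binds telomeric repeats and the silencers of the silent mating loci, where it recruits Sir proteins. Doxycycline keeps the tet-off activator away from its operators, and the comparison asks how the transcriptome differs in cells given this dose. A gene is said to have risen (called higher) or fallen (called lower) where its q-value in the authors' deposited table was below 0.05. Every log2 ratio is the level at 0.1 µg/mL over the control level, with no pseudocount.

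RAP1 itself stood at 31.5 FPKM in the control and at 31.0 FPKM at 0.1 µg/mL, a log2 ratio of -0.02, and was not called (q = 0.935 in the authors' deposited table). The results are therefore given by the labelled dose, since a fall of RAP1 mRNA was not detected and Rap1 protein was not analysed here. Among the marker genes, LEU2 and MET17 (also named MET15) were listed at 0 in both groups. HIS3 had 266 and 215 FPKM and was not called, and URA3 fell from 174 to 111 FPKM.

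The changes reached a large part of the transcriptome and were nearly balanced in number. Of 4996 members that the authors tested, 885 rose (17.7%) and 1026 fell (20.5%). At least 2-fold changes were fewer: 224 members were 2-fold or more higher (4.48%) and 227 were 2-fold or more lower (4.54%), of which 212 and 222 were also called. The large rises went further than the large falls: 50 members rose 4-fold or more and 13 fell by as much, and 11 rose 8-fold or more against 1 that fell by as much. The median log2 ratio of all members was -0.03, with quartiles of -0.35 and 0.28, and the range ran from -3.10 for MET6 to 4.93 for BTN2. The sum of all levels fell by 2.65%. The smallest absolute log2 ratio that was called was 0.38, and 885 members shared the smallest q in the authors' deposited table, 0.00032931, so q does not rank them.

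**Figure D1:**
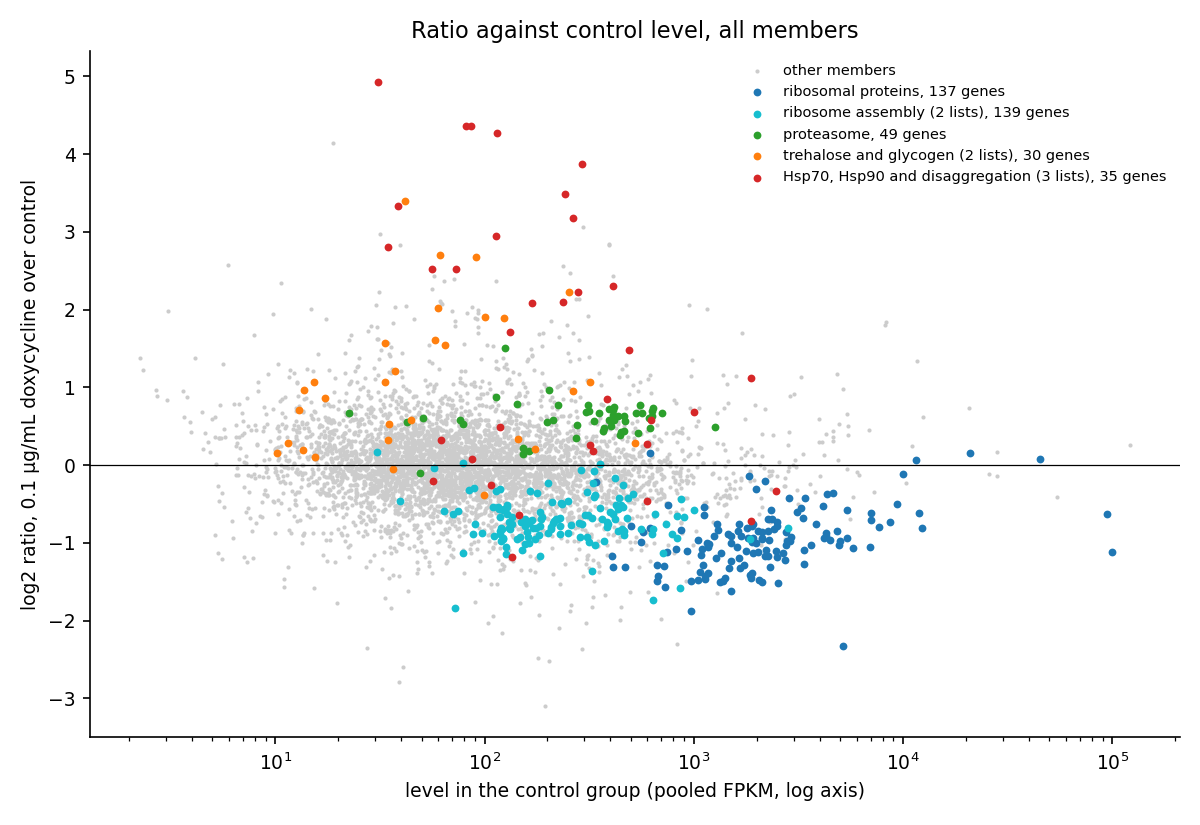
Log2 ratio of each of the 4997 members (y axis) against its pooled control level in FPKM (x axis, log scale). The 137 ribosomal protein genes lie at high levels around a median ratio of -0.97, and the 139 ribosome assembly genes lie mostly below 0 at intermediate levels. The 49 proteasome genes lie mostly above 0, from -0.11 to 1.51, and chaperone and carbohydrate storage genes spread upward.

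Genes that make ribosomes formed the largest group that fell. The list of 137 cytosolic ribosomal protein genes held 124 that fell and none that rose, and 63 were 2-fold or more lower. Its median log2 ratio was -0.97. The background for these counts is the 20.5% of all members that fell. Because these genes are abundant, their share of the summed FPKM went from 31.3% in the control to 19.9%. A large part of the list's sums, 608495 and 377577 FPKM, lies in the pair RPL41A and RPL41B. These fell from 94234.7 to 61141.4 FPKM and from 99437.5 to 45908.5 FPKM. The largest fall by ratio was that of RPL29, a small protein of the large subunit, from 5182 to 1032 FPKM (log2 ratio -2.33). RPL16A fell from 968 to 264 FPKM (-1.87), RPS21B from 1510 to 490 FPKM (-1.62) and RPL21B from 727 to 245 FPKM (-1.57). The small subunit genes had a median of -1.04 (52 of 56 fell) and those of the large subunit a median of -0.92 (72 of 81 fell). Genes with an intron fell in 86 of 89 cases and those without one in 38 of 48. Outside the ribosomal proteins, 31 of 150 intron-containing genes rose and 17 fell.

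Most yeast ribosomal proteins are encoded by a pair of nearly identical genes, between which reads can be shared, so the values within a pair are uncertain. In 51 of 59 pairs both genes fell, in 6 pairs only 1 of them did, and in 2 pairs neither was called. The median absolute difference within a pair was 0.18 on the log2 scale. The 3 pairs with the widest difference were chosen after their values were seen. RPS22A fell from 5795 to 2772 FPKM (-1.06), while RPS22B had 619 and 688 FPKM (0.15) and was not called. RPS21A had 2848 and 2135 FPKM (-0.42) and was not called, while its partner RPS21B fell. In the third pair both fell, RPL16A by 1.87 and RPL16B by 0.73 on the log2 scale. Of the 13 ribosomal protein genes that were not called, 2 are among the 10 most abundant members of the table: RPL39 had 45158 and 47632 FPKM, and RPS28A had 20956 and 23443 FPKM.

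A core of the Rap1 consensus, CACCCNNAC, was searched on both strands of the 500 bases before each start codon, since Rap1 sites of ribosomal protein genes lie far upstream. It was found in 24.1% of 137 ribosomal protein promoters and in 4.21% of all 6006 windows of that length. The strict letters miss degenerate sites, and a window without them says nothing about Rap1 there. The 3 ribosomal protein genes with the largest falls among those that hold the core are shown to let its variants be compared. Each sequence is 59 bases of the R64 reference on the gene's strand, with the match in capitals, at 343, 310 and 474 bases before the start codon, and in RPS18B the capitals are the reverse complement of the core. They come from chrX:157583-157641 (minus strand), chrXIII:224105-224163 (minus strand) and chrXV:505295-505353 (plus strand).
RPS21B: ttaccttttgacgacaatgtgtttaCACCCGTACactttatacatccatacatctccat
RPS18B: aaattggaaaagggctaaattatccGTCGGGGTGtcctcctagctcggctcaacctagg
RPS7A: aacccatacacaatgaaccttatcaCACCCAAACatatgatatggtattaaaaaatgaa
These genes fell by 1.62, 1.52 and 1.46 on the log2 scale.

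The machinery that builds ribosomes fell as well. Of 65 genes of the small-subunit processome, which cuts and modifies the precursor of the small-subunit rRNA, 54 fell and 0 rose (median -0.69). Of 74 assembly factors of the 60S subunit, 62 fell and 0 rose (median -0.75). DHR2, an RNA helicase of the processome, fell from 72.1 to 20.2 FPKM (-1.84), and NSR1, the yeast nucleolin, fell from 640 to 192 FPKM (-1.73). NOP1, the methyltransferase fibrillarin, fell from 1849 to 954 FPKM (-0.95). On the 60S side the helicase genes DBP2 and HAS1 fell from 860 to 287 FPKM (-1.58) and from 328 to 128 FPKM (-1.36). The 2 lists differ from the ribosomal proteins in that few of their members passed 2-fold, 4 and 9 against 63.

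Other parts of the translation system changed less often. Of 37 genes of RNA polymerases I and III and their factors, 16 fell and 1 rose (median -0.29), with the polymerase I factor gene RRN11 from 48.1 to 19.1 FPKM (-1.34) and the polymerase III subunit gene RPC17 from 131 to 58.8 FPKM (-1.16). Of 49 tRNA modification genes 24 fell and 0 rose, among them TRM11, a subunit of a tRNA guanine methyltransferase, from 156 to 54.8 FPKM (-1.51). Translation factors fell in 9 of 41 cases, a share of 22.0% that is near the 20.5% of all members. The largest fall there was that of ANB1, the eIF5A gene of anaerobic cells, from 375 to 118 FPKM (-1.67), while its aerobic counterpart HYP2 had 910 and 680 FPKM and was not called. Of 33 aminoacyl-tRNA synthetase genes 5 fell and 2 rose, with the lysine enzyme gene KRS1 at -1.23. Mitochondrial ribosomal protein genes fell in 5 and rose in 2 of 76 cases (median -0.10).

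Promoters of ribosome assembly genes carry the letters of 2 elements: PAC (GATGAG), bound by the repressors Dot6 and Tod6, and RRPE (AAAATTTT), bound by Stb3. In the 250 bases before the start codon, PAC stood in 86.2% of the 65 processome promoters and in 87.8% of the 74 assembly factor promoters, against 17.01% of all 6007 promoters. RRPE stood in 76.9% and 81.1% of them, against 8.66% of all. The elements were described from such genes, so these shares are not independent of the lists. DHR2, the processome gene with the largest fall, shows 3 overlapping PAC matches, in capitals, at 76, 71 and 66 bases before the start codon. The window is chrXI:288595-288844 of R64, plus strand.
DHR2: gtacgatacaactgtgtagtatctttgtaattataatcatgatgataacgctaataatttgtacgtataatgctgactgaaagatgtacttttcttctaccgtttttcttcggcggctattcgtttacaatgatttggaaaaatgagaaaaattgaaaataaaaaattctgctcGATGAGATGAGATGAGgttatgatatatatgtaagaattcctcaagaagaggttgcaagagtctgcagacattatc
Across all members with a promoter window the calls followed the number of matches. Among 4102 members with no PAC match 17.3% fell, among 703 with 1 match 33.4% fell, and among 139 with 2 or more 58.3% fell. For RRPE the shares that fell were 18.2% of 4467, 42.1% of 437 and 62.5% of 40.

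Chaperones and their helpers held the 5 largest rises of the table. Of 10 measured genes of protein disaggregation and small heat-shock proteins, 9 rose and 0 fell (median 2.66), against the 17.7% of all members that rose. BTN2, which sorts misfolded proteins to deposits, rose from 30.9 to 940 FPKM, 30.5-fold. HSP104, the disaggregase, rose from 86.0 to 1771 FPKM (20.6-fold), HSP42, a small heat-shock protein, from 115 to 2234 FPKM (19.4-fold), and CUR1, a paralog of BTN2, from 34.6 to 241 FPKM (6.97-fold). That list also holds genes named for heat shock with other roles, such as HSP30 of the plasma membrane and HSP150 of the cell wall (log2 ratios 3.87 and 1.13). The gene of it that was not called, named after its value was seen, was HSP12, with 599 and 723 FPKM. Hsp70 and Hsp110 genes rose in 6 of 11 cases and fell in 1. SSA1 and SSA2, the constitutive Hsp70 genes, rose from 243 to 2721 FPKM and from 266 to 2408 FPKM, and as near-identical copies may share reads. SSE2, an Hsp110 nucleotide exchange factor, rose from 38.7 to 390 FPKM (10.1-fold), and FES1, another exchange factor, from 280 to 1306 FPKM. The Hsp70 genes of the ribosome went the other way or were not called: SSB1 fell from 1879 to 1140 FPKM (-0.72), and SSB2 had 2485 and 1973 FPKM.

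The Hsp90 genes and their partners rose in 8 of 14 cases and fell in 2. HSP82, the inducible Hsp90, rose from 81.5 to 1684 FPKM (20.7-fold) and HSC82, the constitutive one, from 413 to 2040 FPKM, so that HSP82 made 16.5% of the pair's summed level in the control and 45.2% at 0.1 µg/mL. The co-chaperone genes STI1 and AHA1 rose from 114 to 879 FPKM (7.72-fold) and from 132 to 433 FPKM. PPT1, a phosphatase that acts on Hsp90, fell from 135 to 59.5 FPKM (-1.18). Among the J-domain proteins, which bring substrates to Hsp70, SIS1 rose from 294 to 2451 FPKM (8.33-fold) and YDJ1 from 473 to 1160 FPKM, whereas JJJ3, a gene of the diphthamide pathway, fell from 124 to 50.6 FPKM (-1.29). In mitochondria the disaggregase HSP78 rose from 18.97 to 335 FPKM (17.7-fold), MDJ1 from 57.5 to 309 FPKM and HSP60 from 283 to 865 FPKM, with 6 of 18 genes of that list higher and 0 lower. In the endoplasmic reticulum 6 of 27 folding genes rose, a share of 22.2% that is near the 17.7% of all members (median 0.16). Only KAR2, the Hsp70 of this compartment, was 2-fold or more higher, from 315 to 824 FPKM (log2 ratio 1.39). The CCT chaperonin and prefoldin genes, which fold actin and tubulin, had 0 of 15 called and a median of -0.05.

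The heat-shock element bound by Hsf1 is a run of GAA units in alternating orientation. A run of 3 such units (GAA and TTC by turns, 2 bases apart, either strand) was found in 13.6% of the 66 chaperone promoters within 250 bases and in 0.749% of all promoters. HSP42 was the chaperone gene with the largest rise that holds one there, and its 2 matches overlap into a run of 4 units, in capitals, that begins 243 bases before the start codon (chrIV:806371-806620 of R64, plus strand).
HSP42: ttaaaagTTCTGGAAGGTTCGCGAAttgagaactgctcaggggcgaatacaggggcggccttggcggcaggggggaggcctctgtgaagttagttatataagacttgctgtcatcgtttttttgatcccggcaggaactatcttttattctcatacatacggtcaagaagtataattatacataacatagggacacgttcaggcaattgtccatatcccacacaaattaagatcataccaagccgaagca
Among the 7 members with 2 or more such matches 5 rose and 1 fell, and among the 32 with 1 match 15 rose and 6 fell. A single pair of units (GAANNTTC) is common, in 9.92% of all promoters and in 10.8% of those of genes that rose.

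Transcripts of most proteasome genes rose, by less than 2-fold in all but 1 case. The list of 49 proteasome genes held 40 that rose and none that fell (median 0.60, lowest ratio -0.11). The gene past 2-fold was RPN4, the transcription factor of the proteasome genes, which went from 125 to 356 FPKM (log2 ratio 1.51). By subunit, in a split made after the list's values were known, 12 of 14 genes of the 20S core rose (log2 ratios from 0.42 to 0.74), as did 6 of 6 ATPases of the 19S cap (0.50 to 0.77) and 11 of 14 other cap subunits (0.35 to 0.97). RPN1, the scaffold of the cap, rose from 204 to 398 FPKM (0.97), UFD1, a partner of the segregase Cdc48, from 114 to 209 FPKM (0.87), and the assembly chaperone gene UMP1 from 552 to 944 FPKM (0.77). Of 30 ubiquitin and ligase genes 12 rose and 2 fell. UBI4, the polyubiquitin gene of stressed cells, rose from 255 to 644 FPKM, UBC5 from 162 to 416 FPKM and HUL5, a ligase of the proteasome, from 30.9 to 59.3 FPKM. Autophagy genes rose in 19 of 41 cases with 0 that fell (median 0.39), among them ATG8, the ubiquitin-like protein of the autophagosome membrane, from 182 to 582 FPKM (1.68), and the kinase gene ATG1 from 11.7 to 27.4 FPKM (1.22).

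The proteasome-associated element PACE (GGTGGCAAA), to which Rpn4 binds, stood in 59.2% of the 49 proteasome promoters and in 1.13% of all promoters. Of 62 members with 1 match, 69.4% rose and 3.23% fell, while of 4882 members without one 17.1% rose. The element was described from proteasome genes, as above. RPN1 is shown as the subunit with the largest rise that holds the element within 250 bases. Its match, in capitals, begins 145 bases before the start codon (chrVIII:164712-164961 of R64, minus strand).
RPN1: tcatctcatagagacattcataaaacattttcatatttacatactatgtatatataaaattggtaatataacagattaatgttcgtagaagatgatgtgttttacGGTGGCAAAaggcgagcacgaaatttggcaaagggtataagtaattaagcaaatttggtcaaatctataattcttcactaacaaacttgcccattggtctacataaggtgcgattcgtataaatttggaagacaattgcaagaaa

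Genes that protect cells in stress and store carbohydrate rose together. Of 49 general stress genes, mostly targets of Msn2 and Msn4, 35 rose and 2 fell (median 0.92), and their share of the summed FPKM went from 1.12% to 2.86%. Much of that share is 1 abundant gene, HOR7, named after its value was seen. It rose from 11697 to 29565 FPKM, while the list's sum went from 21817 to 54171 FPKM. PNC1, the nicotinamidase that clears an inhibitor of Sir2, rose from 392 to 2811 FPKM (7.16-fold). GAD1, glutamate decarboxylase, rose from 64.2 to 332 FPKM (2.37 on the log2 scale), and the cytosolic catalase gene CTT1 from 31.4 to 148 FPKM (2.23). RCK1, a kinase of the oxidative stress response, fell from 27.5 to 5.39 FPKM (-2.35). The second gene that fell, named after its value was seen, was ALD4, at -1.26. MSN2 and MSN4 themselves were not called, at 49.9 and 60.3 FPKM and at 111 and 129 FPKM.

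Trehalose genes rose in 10 of 11 cases (median 1.21). TSL1, a large subunit of trehalose synthase, rose from 41.7 to 440 FPKM (10.5-fold), the phosphatase TPS2 from 90.6 to 577 FPKM (6.37-fold), the synthase TPS1 from 254 to 1190 FPKM, and the trehalase NTH1, which degrades the sugar, from 123 to 456 FPKM. Glycogen genes rose in 10 of 19 cases with 0 that fell. Both glycogen synthase genes rose, GSY2 from 101 to 378 FPKM and GSY1 from 57.8 to 177 FPKM, as did the phosphorylase GPH1, which breaks glycogen down, from 59.9 to 243 FPKM. Genes for synthesis and for breakdown of both stores thus rose side by side. Of 41 redox defence genes 14 rose and 2 fell, with the peroxiredoxin gene AHP1 from 1697 to 5524 FPKM (1.70). The 2 metallothionein genes CUP1-1 and CUP1-2, repeats of the same gene that cannot be told apart by their reads, rose from 8240 to 28664 FPKM and from 8292 to 29660 FPKM. Together they were 0.849% of the summed FPKM in the control and 3.08% at 0.1 µg/mL.

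The stress response element AGGGG (STRE) was present within 250 bases in 61.2% of the 49 general stress promoters, 36.6% of promoters of genes that rose, 10.4% of those of genes that fell and 18.8% of all 6007. The shares of members that rose were 13.8% of 4047 with no match, 33.4% of 800 with 1 match and 56.7% of 97 with 2 or more. TSL1 had the largest rise of the stress genes that hold the element. Its 3 matches, in capitals, begin 231, 179 and 165 bases before the start codon (chrXIII:70374-70623 of R64, plus strand).
TSL1: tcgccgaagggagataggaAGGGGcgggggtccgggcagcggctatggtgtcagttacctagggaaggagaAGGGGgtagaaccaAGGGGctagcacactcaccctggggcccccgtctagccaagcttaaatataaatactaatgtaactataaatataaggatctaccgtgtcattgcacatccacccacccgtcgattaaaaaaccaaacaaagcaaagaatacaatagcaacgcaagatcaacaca

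**Figure D2:**
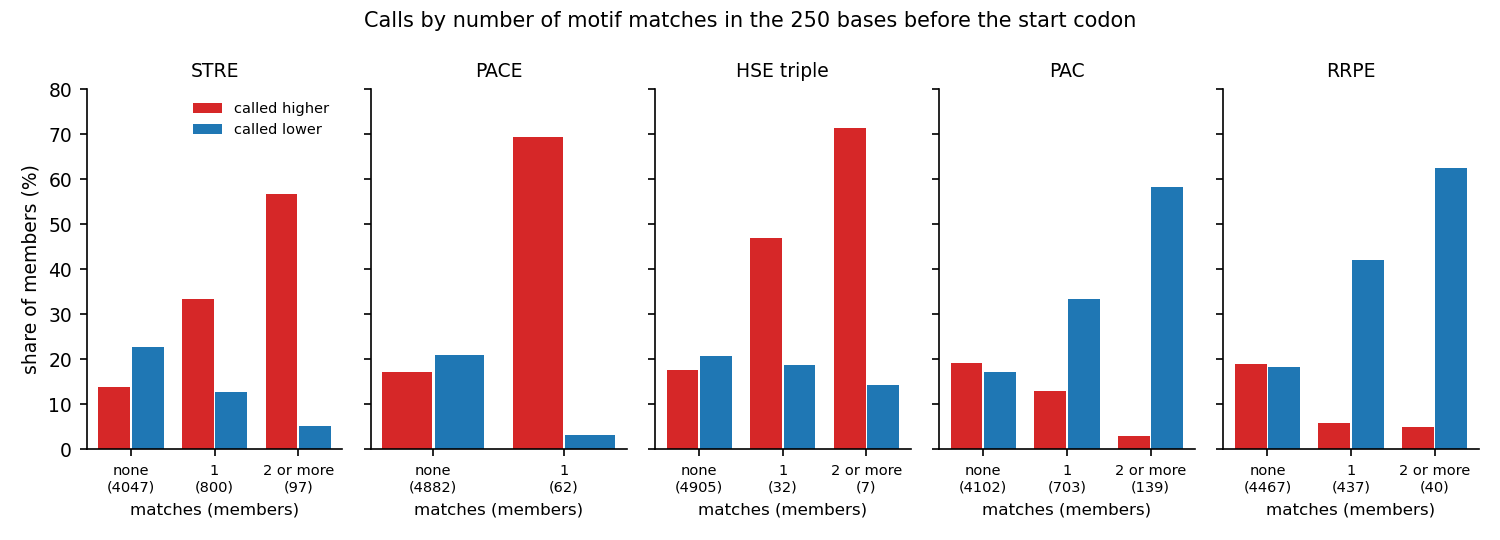
Share of members called higher (red) and lower (blue), in percent, by the number of matches to 5 motifs in the 250 bases before the start codon, with the number of members in brackets. With more STRE, PACE or heat-shock matches the share that rose was higher, and with more PAC or RRPE matches the share that fell was higher.

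Glycolytic genes, the other textbook group of Rap1 targets, seldom fell, unlike the ribosomal protein genes. Of 21, 7 rose and 1 fell (median 0.43), and their share of the summed FPKM went from 2.79% to 4.02%. The rises were in hexose phosphorylation and in minor isozymes: glucokinase GLK1 from 274 to 1201 FPKM (2.13), hexokinase HXK1 from 247 to 862 FPKM (1.80), the second pyruvate kinase PYK2 from 15.2 to 35.0 FPKM (1.21), and PFK26, which makes the activator of phosphofructokinase, from 22.7 to 47.0 FPKM (1.05). TDH1 rose from 1962 to 3353 FPKM (0.77). The most abundant glycolytic gene, TDH3, had 12504 and 19234 FPKM and was not called (log2 ratio 0.62, q = 0.152 in the authors' deposited table), and it has a near-identical copy, TDH2. PFK27, the gene that fell, was named after its value was seen (68.1 to 49.8 FPKM). GCR1, an activator that works with Rap1 at these genes, rose from 56.9 to 89.4 FPKM (0.65), and GCR2 was not called, with 89.4 and 81.5 FPKM. Hexose transporter genes rose in 9 of 30 cases and fell in 1, with the low-affinity genes HXT3 and HXT1 higher (1374 to 3070 FPKM and 153 to 317 FPKM) and HXT2 lower (382 to 227 FPKM).

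Acetaldehyde and pyruvate metabolism changed in both directions. ALD6, the main cytosolic aldehyde dehydrogenase and a source of NADPH and acetate, fell from 828 to 168 FPKM (-2.31), and the mitochondrial genes ALD5 and ALD4 fell from 212 to 80.6 FPKM and from 349 to 146 FPKM. ACS2, which makes acetyl-CoA from acetate, fell from 189 to 123 FPKM, while PDC1, the major pyruvate decarboxylase, rose from 3003 to 5666 FPKM (0.92). MPC3, a subunit of the mitochondrial pyruvate carrier, fell from 180 to 32.2 FPKM (-2.48). In the TCA cycle 8 of 21 genes rose and 4 fell: CIT1, citrate synthase, rose from 188 to 548 FPKM (1.54), and MAE1, the malic enzyme, fell from 154 to 71.7 FPKM (-1.10). Of 46 oxidative phosphorylation genes 12 rose and 1 fell, led by STF2 and STF1, regulators of ATP synthase, from 1155 to 4630 FPKM (2.00) and from 479 to 1063 FPKM (1.15). By complex, a split made after values were known, 4 of 9 complex III genes rose, against 0 of 10 for complex IV and 1 of 13 for ATP synthase. The complex II genes were counted in the TCA cycle list, where 3 of 4 rose. In the pentose phosphate pathway SOL4 rose from 39.3 to 281 FPKM (7.13-fold) and RKI1, ribose-5-phosphate isomerase, fell from 333 to 119 FPKM (-1.49).

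Genes for the same enzyme or protein parted in some sets. Among 65 sets with 2 or more measured members, 10 rose throughout, 8 fell throughout, 16 had no call, 29 had some members called in 1 direction, and 2 held calls in opposite directions. One of these was cytochrome c, where CYC1, the form of aerobic cells, fell from 233 to 175 FPKM (q = 0.0469 in the authors' deposited table). CYC7, the form of hypoxic and stressed cells, rose from 92.6 to 361 FPKM and went from 28.4% to 67.4% of the pair. The other was cytosolic aldehyde dehydrogenase, with ALD6 lower and ALD2 higher, from 29.4 to 48.6 FPKM, although ALD2 has a near-identical copy, ALD3, that may share its reads. The widest difference in log2 ratio within a set had a median of 0.61 over the 65 sets, and in 12 sets it was 2 or more. In phosphoglucomutase the share of PGM2 went from 38.1% to 83.9% of the sum with PGM1. The share of SOL4 in the sum with SOL3 went from 15.5% to 60.6%, and the share of CTT1 in the sum with the peroxisomal catalase CTA1 from 43.6% to 78.6%. ADE17 fell from 292 to 56.6 FPKM (-2.37), while ADE16, which encodes the same pair of purine synthesis steps, had 231 and 271 FPKM and was not called. The cytosolic serine hydroxymethyltransferase SHM2 fell from 701 to 178 FPKM (-1.98), and its mitochondrial counterpart SHM1 had 272 and 245 FPKM. Some abundant pairs had no call: the elongation factor genes TEF1 and TEF2 had 6164 and 5626 FPKM and 6001 and 5651 FPKM, with no call.

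**Figure D3:**
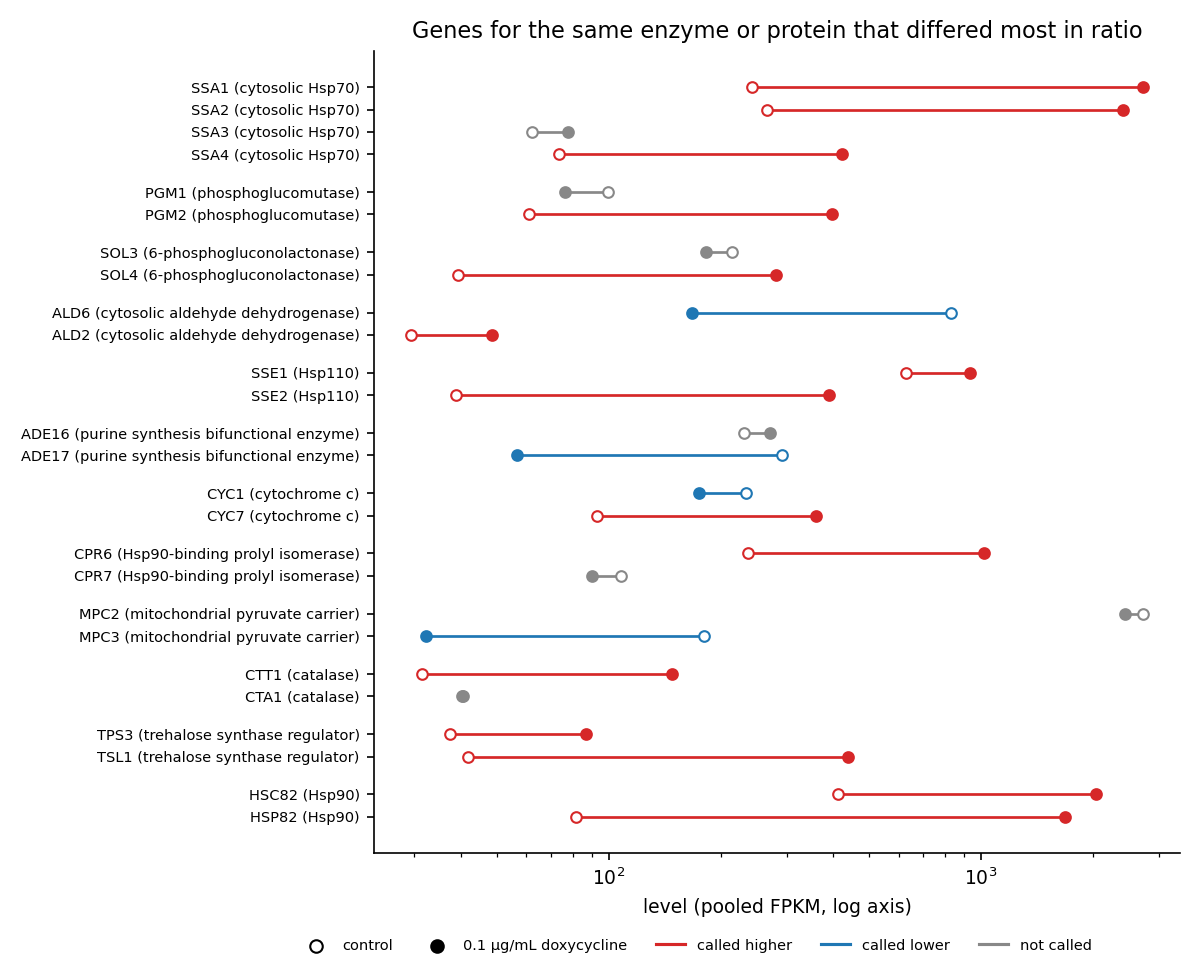
Pooled levels in FPKM (x axis, log scale) in the control (open) and at 0.1 µg/mL (filled) of the genes in the 12 sets whose members differed by 2 or more in log2 ratio, with red for called higher, blue for called lower and grey for not called. SSA3, PGM1, SOL3, ADE16, CPR7, MPC2 and CTA1 are not called while a partner is.

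Biosynthesis of amino acids fell, unequally by pathway. Arginine genes fell in 9 of 12 cases with 1 that rose (median -0.82): ARG3, ornithine carbamoyltransferase, from 39.0 to 5.64 FPKM (-2.79), ARG1, argininosuccinate synthase, from 204 to 35.6 FPKM (-2.52), and ARG4, argininosuccinate lyase, from 227 to 53.1 FPKM (-2.10). Lysine genes fell in 8 of 10 cases, but none by 2-fold (lowest ratio -0.80, of LYS20). Branched-chain genes fell in 8 of 12 cases, with ILV3 from 918 to 327 FPKM (-1.49) and LEU9 from 148 to 43.3 FPKM (-1.77). Aromatic amino acid and histidine genes fell in 12 of 22 cases. GCN4, the activator of these pathways, had 1681 and 1793 FPKM and was not called.

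The letters TGACTC, bound by Gcn4 and Bas1, stood within 250 bases in 6 of the 12 arginine promoters and in 6.24% of all promoters. ARG4 is the arginine gene with the largest fall among those that hold them. The match, in capitals, begins 179 bases before the start codon (chrVIII:141403-141652 of R64, minus strand).
ARG4: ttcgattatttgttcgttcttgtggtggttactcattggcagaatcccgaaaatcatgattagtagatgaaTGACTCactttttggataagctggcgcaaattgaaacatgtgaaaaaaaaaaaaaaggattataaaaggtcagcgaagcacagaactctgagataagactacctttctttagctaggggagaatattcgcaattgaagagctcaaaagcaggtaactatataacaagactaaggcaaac
Over all members, 20.4% of 4620 without a match, 24.3% of 301 with 1 match and 39.1% of 23 with 2 or more fell.

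Methionine and one-carbon genes held the single largest fall. MET6, methionine synthase, went from 194 to 22.6 FPKM (-3.10). The S-adenosylmethionine synthetases SAM1 and SAM2 fell from 546 to 221 FPKM and from 176 to 76.7 FPKM, the sulfite pump SSU1 from 104 to 25.3 FPKM (-2.03) and the methionine permease MUP1 from 179 to 77.2 FPKM (-1.22). Of that list 18 of 47 fell and 3 rose, among the latter ADI1 of methionine salvage, from 157 to 315 FPKM (1.01). Of 37 genes for glutamate, serine, glycine and one-carbon units 17 fell and 2 rose, with GLY1, threonine aldolase, from 230 to 79.5 FPKM (-1.53) and GDH3 from 166 to 51.04 FPKM (-1.70). Permeases for amino acids and other nitrogen sources fell in 12 of 28 cases, AGP1 from 182 to 47.7 FPKM (-1.93) and the general permease GAP1 from 149 to 58.7 FPKM (-1.35).

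Nucleotide synthesis fell too. Of 29 purine genes 19 fell and 1 rose (median -0.76). Besides ADE17, adenine deaminase AAH1 fell from 306 to 75.2 FPKM (-2.03), the purine permease FCY2 from 603 to 195 FPKM (-1.63) and BAS1, a regulator of the pathway, from 36.9 to 17.7 FPKM (-1.06). Of 20 pyrimidine genes 10 fell and 1 rose: the uridine permease FUI1 from 122 to 27.3 FPKM (-2.15) and CTP synthase URA7 from 294 to 110 FPKM (-1.42). The NAD and thiamine list did not fall as a whole: 7 of 38 fell, a share of 18.4% that is near the 20.5% of all members, and 4 rose (median 0.02). BNA1 and BNA5 of NAD synthesis from tryptophan fell from 255 to 69.6 FPKM (-1.87) and from 47.7 to 18.2 FPKM (-1.39), while the salvage gene PNC1 rose, as given above, and THI4 of thiamine synthesis rose from 5.97 to 35.5 FPKM.

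Genes of the fatty acid and phospholipid list and of the ergosterol list fell more often than they rose. Of 43 genes for fatty acids and phospholipids 18 fell and 4 rose, among them both fatty acid synthase genes, FAS1 from 243 to 101 FPKM (-1.27) and FAS2 from 405 to 183 FPKM (-1.15). CHO2, a phosphatidylethanolamine methyltransferase, fell from 114 to 39.7 FPKM (-1.53), the inositol permease ITR1 from 354 to 136 FPKM (-1.38) and the activator INO2 from 32.3 to 12.7 FPKM (-1.34). In the ergosterol list 12 of 37 genes fell and 3 rose. That list also holds genes that do not make sterol, and several of them are among the 12. These include the mannoprotein genes TIR1 and DAN1 and the cap-binding gene STO1. They also include the transcription factor gene SUT2 (-0.76) and HES1, which encodes an oxysterol-binding protein (-0.67). TIR1 and DAN1 were the only 2 genes of the list that were 2-fold or more lower. In the sphingolipid list 6 of 27 rose (22.2%) and 5 fell (18.5%), shares near the 17.7% and 20.5% of all members. There YPK2, a kinase of membrane stress signalling, rose from 31.7 to 249 FPKM (7.86-fold) and the ceramidase YPC1 from 28.6 to 98.6 FPKM. Cell wall genes rose in 24 of 68 cases and fell in 9: the cell integrity kinase SLT2 rose from 207 to 749 FPKM (1.86), the yapsin protease YPS3 from 110 to 316 FPKM (1.53) and the exchange factor ROM1 from 16.1 to 43.1 FPKM (1.42), while UTR2, a chitin crosslinker, fell from 328 to 92.8 FPKM (-1.82) and the mannoprotein TIR1 from 1293 to 414 FPKM (-1.64). Among plasma membrane proteins HSP30, of the first chaperone list, rose from 293 to 4292 FPKM (14.6-fold), YRO2 from 413 to 2235 FPKM (2.43), and the polyamine exporters TPO4, TPO2 and TPO3 by 2.11, 1.92 and 1.71 on the log2 scale.

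**Figure D4:**
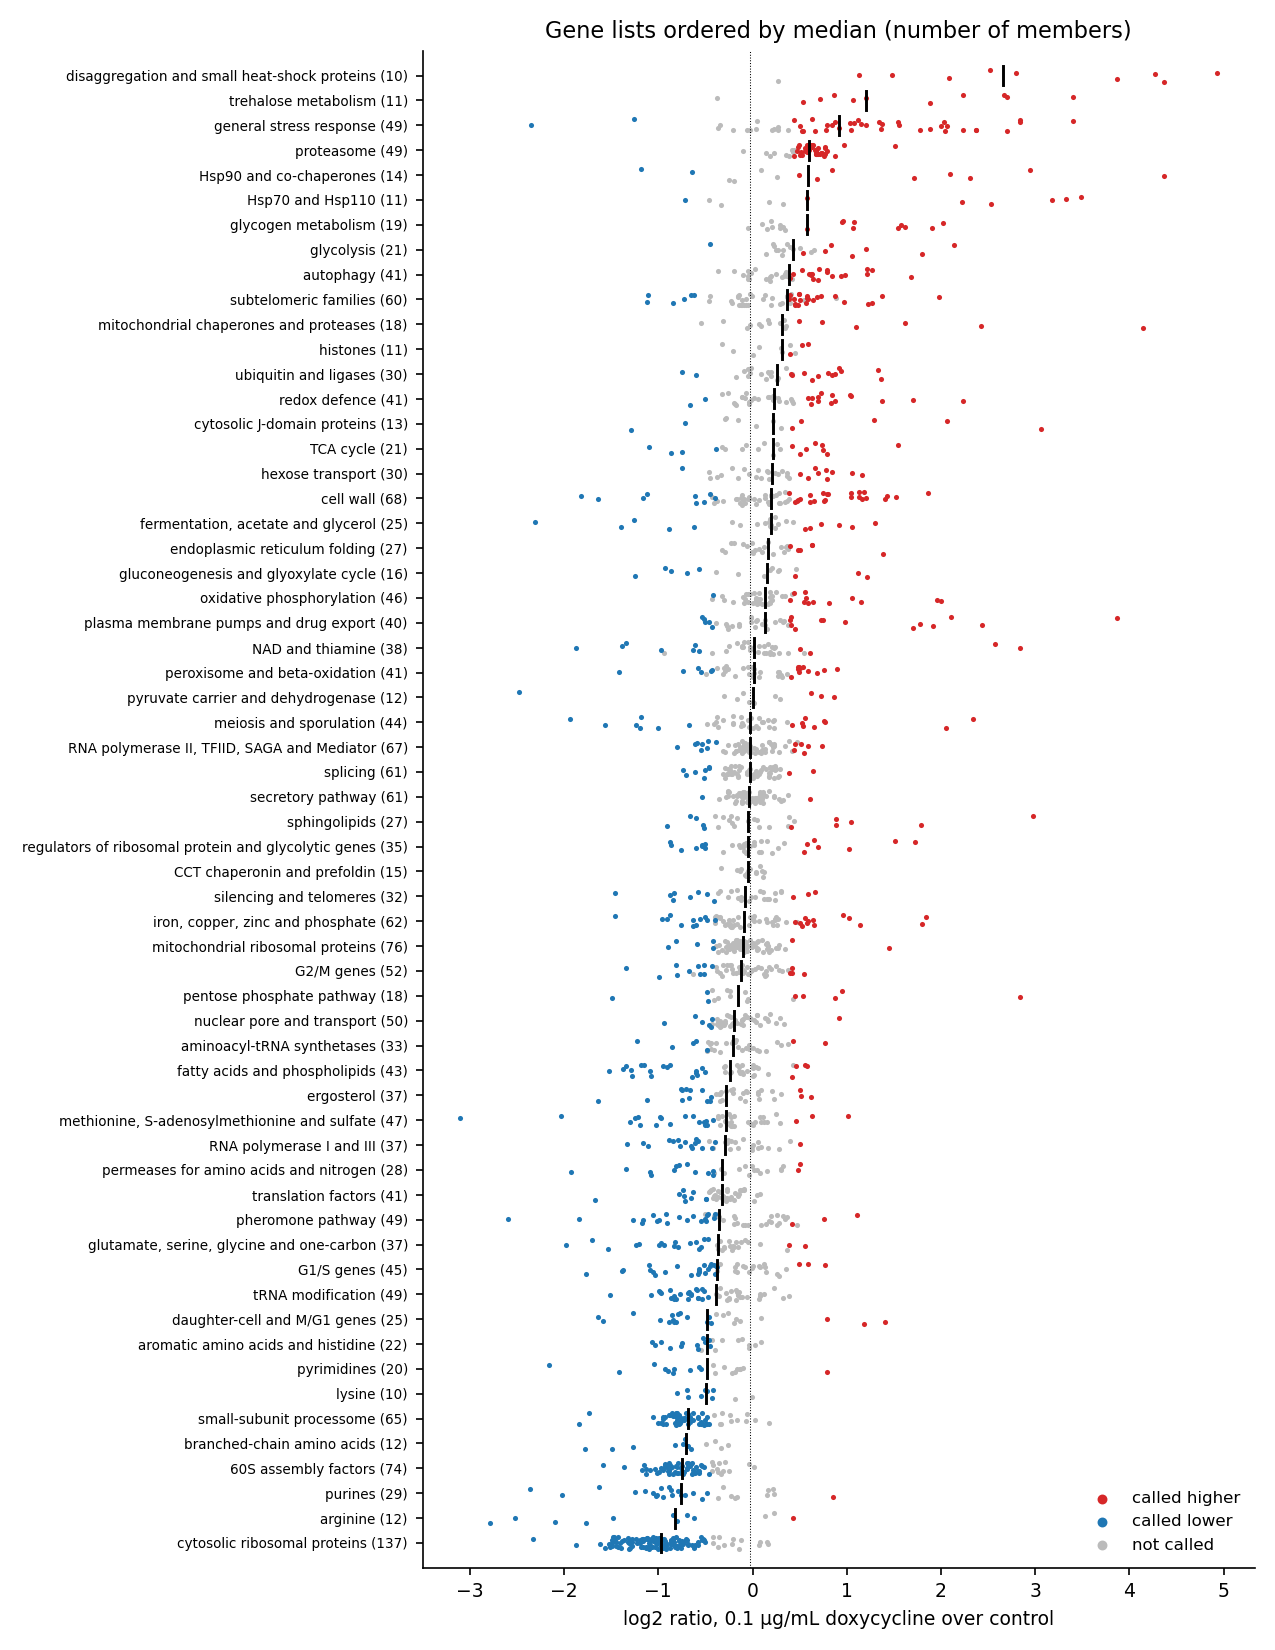
Log2 ratios (x axis) of the members of 60 gene lists, ordered by list median (black bar), with red for called higher, blue for called lower and grey for not called, the number of members in brackets and the median of all members as a dotted line. Disaggregation, trehalose, stress and proteasome genes are at the top and ribosomal protein, arginine, purine and assembly genes at the bottom.

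Cell cycle genes fell most often around G1, in the M/G1 and G1/S lists. Of 45 G1/S genes 23 fell and 3 rose (median -0.38), among them the cyclin genes CLB6, from 19.6 to 5.75 FPKM (-1.77), PCL1, from 174 to 67.2 FPKM (-1.37), and CLN1, from 79.3 to 37.3 FPKM (-1.09), and the repressor genes YOX1 (-1.39) and NRM1 (-1.10). The MCB element (ACGCGT) stood in 28.9% of the G1/S promoters and in 2.90% of all. It is bound by MBF, a factor whose targets the list includes by design, so this share is not independent of the list. By matches within 250 bases, 20.6% of 4801 members without one fell, 20.5% of 127 with 1 match and 43.75% of 16 with 2 or more. Of 25 daughter-cell and M/G1 genes 15 fell and 3 rose, with DSE1, a daughter-cell wall protein, from 496 to 160 FPKM (-1.63) and CDC6, the replication licensing factor, from 15.2 to 5.09 FPKM (-1.58). G2/M genes fell in 10 of 52 cases, a share of 19.2% that is near that of all members, and rose in 4, with the mitotic cyclin CLB1 from 165 to 65.2 FPKM (-1.34). Histone genes rose in 3 of 11 cases and fell in 0. In the pheromone list 20 of 49 genes fell and 3 rose. Among the falls were PRM6 from 35.8 to 10.03 FPKM (-1.84), the fusion gene FUS1 from 65.2 to 27.2 FPKM (-1.26), and the a-cell protease BAR1 from 308 to 137 FPKM (-1.17). The list's largest fall was that of the mating type endonuclease HO, which is not a gene of pheromone signalling, from 41.0 to 6.77 FPKM (-2.60). The a-factor genes MFA1 and MFA2, which stand first and 4th by control level, were not called (121990 and 145959 FPKM, and 54388 and 40845 FPKM).

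Regulators of the ribosomal protein genes showed small changes. FHL1 and IFH1, which activate these genes with Rap1, fell from 29.7 to 20.4 FPKM (-0.54) and from 51.2 to 36.2 FPKM (-0.50). SFP1 and HMO1 were not called, at 49.4 and 51.7 FPKM and at 503 and 405 FPKM. TOD6, a repressor of assembly genes, fell from 125 to 74.3 FPKM (-0.75), and its paralog DOT6 was not called. Of the other general regulatory factors, ABF1 fell from 20.6 to 11.3 FPKM (-0.87), TBF1 from 35.2 to 19.2 FPKM (-0.88) and REB1 from 38.2 to 26.9 FPKM (-0.51). In the protein kinase A module, the catalytic subunit gene TPK2 rose from 53.2 to 108 FPKM (1.02), the inhibitory subunit BCY1 rose from 141 to 211 FPKM (0.58), and TPK3, another catalytic subunit gene, fell from 61.0 to 40.2 FPKM (-0.60). HSF1 rose from 50.03 to 72.8 FPKM (0.54). The kinases TOR1, TOR2 and SCH9 had ratios of -0.09, -0.07 and 0.01 with no call. In all 7 of these 35 genes rose and 8 fell, shares near the 17.7% and 20.5% of all members.

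Silencing and telomere genes fell in 8 of 32 cases, a share of 25% beside the 20.5% of all members, and rose in 3. SIR2, the deacetylase of silent chromatin, fell from 34.8 to 12.7 FPKM (-1.46), while SIR3, SIR4, SIR1, RIF2 and the Ku genes YKU70 and YKU80 were not called, with ratios between -0.34 and 0.31. The acetyltransferase genes SAS3, SAS5 and SAS2 fell (-0.84, -0.67 and -0.49), as did the methyltransferase DOT1 (-0.58) and the telomere replication helicase RRM3 (-0.85). HST2, a cytosolic relative of SIR2, rose from 136 to 216 FPKM (0.67), and TTI1 and ESC1 rose as well (0.59 and 0.43).

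Genes within 10 kb of a chromosome end rose more often than the rest and seldom fell. Of 66 such members 34.8% rose and 4.55% fell, and of 134 members between 10 and 25 kb 27.6% rose and 16.4% fell. Of the 66 members, 10 had a control level under 5 FPKM and so were admitted only through their treated level, and they hold 7 of the 23 rises. Among the 55 members with at least 5 FPKM in both groups 29.1% rose and 5.45% fell. Beyond 100 kb the shares were 17.2% and 20.9% of 3759 members. The changes near the ends were modest, with a median of 0.17. In the subtelomeric families, 22 of 60 genes rose and 6 fell, but 9 of them, with 6 of the rises, were admitted only through their treated level, among them PAU15 of the seripauperins, from 3.08 to 12.1 FPKM (1.98). Of the 51 with at least 5 FPKM in both groups 16 rose and 6 fell, with PAU5 from 24.95 to 60.3 FPKM (1.27) and DAN1 lower, from 51.5 to 23.8 FPKM (-1.12). Members of these families are near-identical in sequence, so reads can be shared between them and the single values are uncertain. Rises were also more frequent among weakly expressed genes. When members were divided by control level into 10 bins of equal size, 25.6% rose and 12.6% fell in the lowest bin, and 11.8% rose and 38% fell in the highest. The lowest bin holds the 18 members with a control level under 5 FPKM, of which 10 rose. Ribosomal protein genes made 132 of the 500 genes of the highest bin, and among the other 368 genes 16.03% rose and 19.02% fell. The part that level plays in the position result was not tested.

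**Figure D5:**
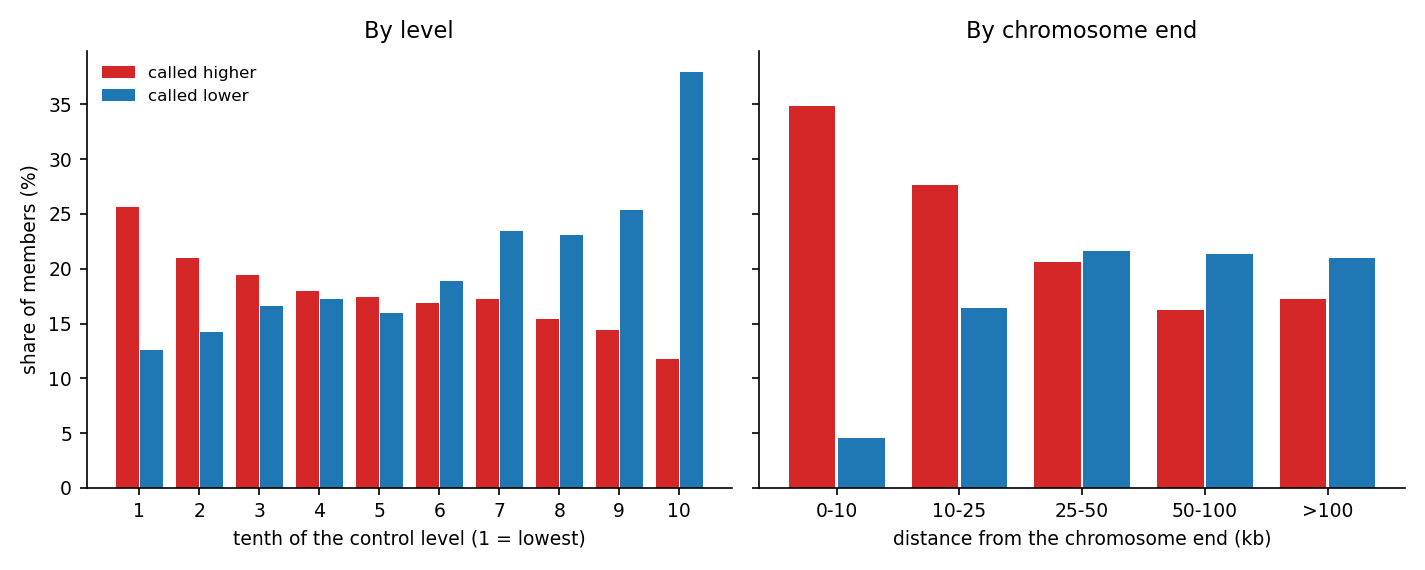
Share of members called higher (red) and lower (blue), in percent, by 10 bins of control level (left) and by distance from the chromosome end in kb (right). The share that fell reaches 38% in the highest bin, and within 10 kb of an end it is 4.55%.

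Transcripts of the mitochondrial genome were few in this polyA RNA. Of 4 members, 3 rose: OLI1, subunit c of ATP synthase, from 69.6 to 276 FPKM (1.99), and the ribosomal RNAs 15S_RRNA from 10.3 to 25.4 FPKM (1.31) and 21S_RRNA from 9.26 to 20.9 FPKM (1.17). These genes lie outside the lists and were named after their values were seen. Neighbouring genes shared direction only weakly. Across 1072 divergent pairs of members Pearson's r of the log2 ratios was 0.18, across 1957 tandem pairs 0.12 and across 1117 convergent pairs 0.09, as descriptions across genes, which are not independent. YPK2 (2.97) and PGM2 (2.70) are adjacent, as are BTN2 and VPS62, which rose from 42.7 to 74.1 FPKM (0.79).

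At the extremes of the table without a call stood mostly tRNA genes. Of the 10 members with the largest absolute ratio among those not called, 9 were tRNA genes, such as SUF5 with 443 and 111 FPKM (-1.99), and the other was SLM6, with 33.5 and 10.2 FPKM (-1.71). None of the 26 tRNA members was called. At the level minimum, the members nearest above it were PAU19, SPO23 and THI12, with higher levels of 5.03, 5.14 and 5.19 FPKM, and those nearest below it were OPI9, YSW1 and GIP1, with 4.96, 4.87 and 4.78 FPKM. Of 18 members whose control level was under 5 FPKM 10 rose, and of 19 whose treated level was under 5 FPKM 13 fell, both groups that the rule admits only through their higher level.

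The other doses were measured against the same control and their tables were scaled separately, so the values are only set side by side. At 0.01, 0.1 and 0.5 µg/mL the proteasome list had medians of 0.37, 0.60 and 0.32, the autophagy list 0.27, 0.39 and 0.09, the trehalose list 0.98, 1.21 and 0.71, the G1/S list -0.14, -0.38 and -0.64 and the processome list -0.53, -0.69 and -0.97. For BTN2 the log2 ratios were 4.45, 4.93 and 3.36, and for HSP82 they were 3.68, 4.37 and 3.59.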

How the data were processed

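PolyA RNA of 12 yeast samples was sequenced, of which the 3 controls and the 3 samples at 0.1 µg/mL doxycycline are used here. The submitters' processing notes name Cuffdiff, Bowtie2 and FastQC, without versions, and the build R64. The deposited table of this comparison holds 1 level per group, read as FPKM from its Cuffdiff column names, with the authors' log2 ratio and their q-value (an adjusted p-value). The authors pooled the samples of a group, so depth and spread per sample are unknown. Counting strand is not given in the sources used here, and reads of overlapping genes may be shared.

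Python 3.11.15, pandas 2.3.3 and numpy 2.4.6 were used. Members were genes with both levels above 0 and the higher at 5 FPKM or more, and a call was the authors' q-value below 0.05. Ratios were recomputed without a pseudocount. 3 lines of the table are empty and 2 gene symbols were restored from dates. The other doses' tables were used only side by side. Motifs were searched on both strands of the R64 reference of RefSeq before each start codon. The counting scripts were tested on simulated data.

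The 60 lists, the 65 sets of isozymes, the motifs and the members were chosen with earlier results of these data known, and no test was run on them. Genes named were the 20 largest called changes each way, up to 6 of each list by absolute ratio, all regulator and silencing genes, opposite isozymes and single sets, the 10 most abundant, the 10 largest uncalled changes, the genotype's genes and those beside the level minimum. Some genes that this rule names are not reported here. Other genes, such as HYP2, SSB2, ACS2, TDH2, TDH3, ADI1, FAS2, RPS7A, VPS62 and the ribosomal protein pairs, were chosen after their values were seen. Alternatives were other minimums, stricter q-values, a pseudocount, other scalings and other promoter windows.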

Additional observations from a re-analysis of the deposited data

Results flagged for a closer look

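Some genes outside the members, which no comparison above uses, had signal at 0.1 µg/mL above their control level, and only these are named here. Of the 64 genes under the minimum, COB, COX3 and PHO92 were the 3 called higher, and 5 were called lower. The initiator tRNA genes IMT3 and IMT1 stood at 46.8 FPKM each and the tRNA gene SUF6 at 4.31 FPKM, all 3 listed at 0 in the control. The mitochondrial genes COB and COX3 stood at 3.17 and 2.87 FPKM, against 1.43 and 0.993 FPKM in the control. PHO92, a reader of methylated RNA, stood at 3.10 FPKM against 1.72 FPKM. With 1 pooled level per group none of these differences has a replicate check here.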

How the results depend on the processing

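No paired analysis was possible because the deposited table holds 1 pooled level per group, and leaving out a replicate was not possible for the same reason. With q below 0.001 in place of 0.05, 433 members were called higher and 560 lower, against 885 and 1026. At that threshold 8 of the 60 lists had at least 50% of their members called in 1 direction, against 18. The isozyme sets with opposite calls went from 2 to 1 at q below 0.01 and at q below 0.001. The other counts over all members moved by less than 1.5 times with a minimum of 1 or 20 FPKM, without a minimum, with a pseudocount and with levels divided by their sum. The balance between directions is within reach of the scaling: with levels divided by their sum the median log2 ratio of all members went from -0.03 to 0.01, and the 2-fold counts from 224 higher and 227 lower to 234 and 204 (217 and 215 with a pseudocount of 1). Of 120 counts within lists, 7 moved by over 1.5 times with a minimum of 20 FPKM, 27 at q below 0.01 and 65 at q below 0.001. List medians moved by less than 1.5-fold under each alternative run. With a pseudocount of 5 FPKM 11 named genes of low level moved by more, such as THI4 to 1.88, RCK1 to -1.64, HO to -1.97, ARG3 to -2.05 and PAU15 to 1.08. Within 500 bases, a window chosen after seeing the data, the heat-shock run was in 21.2% of chaperone promoters and 1.48% of all. Depth is unknown, so a gene without a call may still differ.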

Other observations

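Some lists not described above had fewer calls than all members. Of 67 genes of RNA polymerase II, TFIID, SAGA and Mediator 6 rose and 8 fell, of 61 splicing genes 2 rose and 7 fell, of 50 nuclear pore and transport genes 1 rose and 6 fell, and of 61 secretory pathway genes 1 rose and 1 fell. Others were called about as often as all members or more. Genes for iron, copper, zinc and phosphate rose in 13 of 62 cases and fell in 12, and gluconeogenesis and glyoxylate cycle genes rose in 3 of 16 and fell in 5. Peroxisome and beta-oxidation genes rose in 11 of 41 cases and fell in 6, and meiosis and sporulation genes rose in 9 of 44 and fell in 7. Among the members called, 517 that rose and 397 that fell are in none of the 60 lists.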
